A study of Homo sapiens with 8 samples.

Results

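The genes described are 10 secreted immune mediators: the CC chemokines CCL2, CCL5 and CCL20, the CXC chemokines CXCL10 and CXCL11, and the cytokines IL6, CSF2, CSF3, LIF and TNFSF14. They were chosen by gene name from the deposited table, which lists 31461 genes for either line, and all 10 were listed for both lines. RNA was sequenced in 8 libraries of human lung cancer lines, 2 for each of 4 groups: H1299 transfected with miR-29a-3p, H1299 transfected with a control microRNA, A549 transfected with miR-29a-3p and A549 transfected with the control. The genotype of every library is given as wild type, and the stated purpose was to look for potential targets of miR-29a-3p. A549 comes from a lung adenocarcinoma and H1299 from a lymph node metastasis of a non-small cell lung cancer, so the values are those of tumour cells in culture without immune cells, and each line is 1 genetic background.

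Chemokines are small secreted proteins that draw immune cells along a gradient. CCL2 attracts monocytes through the receptor CCR2, CCL5 attracts T cells and monocytes, CCL20 attracts CCR6-bearing dendritic and T cells, and CXCL10 and CXCL11 attract activated T cells through CXCR3. IL6 and LIF signal through the shared receptor subunit IL6ST (gp130) to the transcription factor STAT3, CSF2 and CSF3 drive the growth of granulocytes and macrophages, and TNFSF14 (LIGHT) binds the herpesvirus entry mediator TNFRSF14 and the lymphotoxin beta receptor LTBR. Such genes are mostly silent in resting epithelium and are induced by the NF-kB, IRF and AP-1 transcription factors, while their mRNAs are often short-lived through AU-rich elements in the 3′ UTR. MicroRNAs act on mRNAs that hold a match to their seed.

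Estimated library totals ran between 12221310 and 15614821 fragments, and values are FPKM, fragments scaled to gene length and library total. Marker genes lay opposite to the line labels: the summed level of 8 A549 markers was 1930 to 1981 FPKM in miR-29a-3p and 1118 to 1147 FPKM in control libraries labelled H1299, against 181 to 183 FPKM in miR-29a-3p and 173 to 183 FPKM in control libraries labelled A549. ALDH1A1 alone averaged 1441 and 797 FPKM in the H1299 groups. Of the 7 tested, 6 were called higher in limma in H1299 than in A549 controls. Among them MUC5B reached 1 FPKM, the level needed for testing, in H1299 libraries alone, so a difference in it was built in. GPX2 was not called, at 1.58 and 1.77 FPKM, and CEACAM6 stayed at 0.118 FPKM or less. CDKN2A, which A549 lacks, stood at 0.0513 to 0.112 FPKM in the 4 libraries labelled H1299 and at 23.8 to 28.4 in the 4 labelled A549. Lines are therefore named as labelled, and a direction between lines holds for the labels only. Among epithelial markers EPCAM stayed at 0.135 FPKM or less and CDH1 at 1.91 FPKM or less, while the keratin KRT18 lay between 42.1 and 58.3 FPKM. Other keratins moved with treatment. KRT8 averaged 80.7 FPKM after miR-29a-3p and 32.6 in controls in H1299, and 17.8 and 25.7 in A549. KRT19 averaged 20.0 and 4.39 FPKM in H1299, and 2.95 and 1.58 in A549. The leukocyte gene PTPRC was at most 0.00675 FPKM, and all 8 lymphocyte markers (3 not listed) and all 5 neutrophil markers (1 not listed) were under 1 FPKM in all 8 libraries. Of 8 monocyte and macrophage markers 6 were under 1 FPKM throughout. Their sum was 26.0 to 27.3 FPKM in H1299 miR-29a-3p and 9.33 to 9.50 in H1299 control libraries, and 21.5 to 24.0 and 19.1 to 19.8 in A549 miR-29a-3p and A549 control libraries, with CD68, a lysosomal gene that other cells also express, the highest at up to 24.9 FPKM. The 5 fibroblast markers summed to 2.39 to 2.54 FPKM in H1299 miR-29a-3p and 1.04 to 1.11 in H1299 control libraries, with COL1A2 at or near 0 and 4 of the 5 under 1 FPKM throughout. What part these markers have in the results was not tested.

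The sequences that bear on the treatment come first. The transfected microRNA is shown from RefSeq (GRCh38.p14, chr7:130876748-130876769, minus strand), with its seed, bases 2 to 8, in capitals. The reverse complement of the seed, TGGTGCT, was searched in the longest annotated 3′ UTR of each gene (GENCODE release 29). Of the 10 genes 1 held it, LIF, while 16.4% of the 11632 tested genes with a 3′ UTR did. A shorter match, without the pairing to base 8, was also found in CXCL10, and its share over all genes was not counted. The LIF match begins at base 1096 of a 3204-base UTR (GRCh38, chr22:30242538-30242566, minus strand, exonic) and is shown with the match in capitals.
hsa-miR-29a-3p: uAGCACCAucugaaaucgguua
LIF 3′ UTR: tattaacttatTGGTGCTttcagtggcca

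AU-rich motifs were more frequent in these UTRs than the seed match. The heptamer TATTTAT, the core bound by decay factors of the ZFP36 family, was found in 6 of the 10 genes, and 35.5% of tested genes held it. Copies numbered 7 in CSF2, 5 in LIF, 3 in each of IL6 and CSF3, and 1 in each of CCL20 and TNFSF14. At least 3 copies were present in 4 of the 10 genes, against 6.89% of tested genes. The densest stretch, from CSF2 (GRCh38, chr5:132076072-132076101, plus strand), is shown with overlapping ATTTA pentamers in capitals, since the decay factors of these elements are described further on. A match describes letters and is not a site of binding.
CSF2 3′ UTR: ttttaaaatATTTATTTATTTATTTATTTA

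CXCL10 and CXCL11 lie on the same strand of chromosome 4 and are the pair whose responses split in A549, so their promoters are shown, 250 bases before to 50 after the start site (RefSeq, GRCh38.p14). Capitals mark matches on either strand to the NF-kB consensus, to the interferon-stimulated response element (GAAA, any 2 bases, GAAA) and to the AP-1 element TGANTCA. CXCL10 (chr4:76023448-76023747, minus strand) held the interferon element at -221 to -212 and NF-kB matches at -177 to -168 and -122 to -113. CXCL11 (chr4:76036021-76036320, minus strand) held an AP-1 match at -87 to -81 and an NF-kB match at -76 to -67. Promoters of 6 of the 10 genes were at hand (CCL20, CXCL10, CXCL11, IL6, CSF2 and TNFSF14), and CCL2, CCL5, CSF3 and LIF are named only. An NF-kB match was found in 5 of these 6, all but CSF2, against 10.8% of 27305 promoters. In TNFSF14 2 NF-kB matches overlap, beginning at -192 and -191. The interferon element was found in CXCL10 and TNFSF14 and the AP-1 element in CXCL11 and TNFSF14, against 3.65% and 7.76% of promoters.
CXCL10 promoter: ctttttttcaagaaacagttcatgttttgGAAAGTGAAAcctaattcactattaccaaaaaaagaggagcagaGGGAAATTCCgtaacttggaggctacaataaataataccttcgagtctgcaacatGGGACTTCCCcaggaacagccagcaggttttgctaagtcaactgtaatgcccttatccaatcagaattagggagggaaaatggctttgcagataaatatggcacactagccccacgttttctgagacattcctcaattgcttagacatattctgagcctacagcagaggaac
CXCL11 promoter: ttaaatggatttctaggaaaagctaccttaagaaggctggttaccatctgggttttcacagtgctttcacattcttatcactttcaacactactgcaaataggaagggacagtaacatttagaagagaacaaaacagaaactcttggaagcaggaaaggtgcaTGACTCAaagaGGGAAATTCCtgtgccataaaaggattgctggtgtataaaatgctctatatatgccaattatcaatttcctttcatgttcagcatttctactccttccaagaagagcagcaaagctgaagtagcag

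In the libraries labelled H1299, 9 of the 10 genes rose after miR-29a-3p and LIF fell. A gene was called at an adjusted p under 0.05 in limma over all 14635 genes tested, where 25.1% rose and 24.8% fell. The median log2 fold change of the 10 genes was 1.57, against 0.00 for all genes tested. Fold changes were taken on log2(FPKM + 1), where low genes show less than their true change, and means are given ± SD with n = 2. All 10 genes passed the filter of at least 1 FPKM in 2 or more libraries, but CSF3 and TNFSF14 passed only through the H1299 miR-29a-3p libraries, so a difference in them was built in, and the counts are a description. In bulk RNA a smaller number of expressing cells and less RNA per cell cannot be told apart.

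The 3 CC chemokines were all higher in H1299 cells after miR-29a-3p. CCL2 (ENSG00000108691, chromosome 17, 34255218 to 34257203, plus strand), the monocyte attractant, had 12.7 and 11.8 FPKM in miR-29a-3p libraries, against 2.33 and 2.12 FPKM in control libraries, 2.04 ± 0.071 higher in log2 terms (SE, adjusted p = 1.1e-05). CCL20 (ENSG00000115009, chromosome 2, 227805739 to 227817564, plus strand), the CCR6 ligand, had 7.77 and 8.39 FPKM in miR-29a-3p libraries, against 2.35 and 2.28 FPKM in controls, 1.45 ± 0.065 higher in log2 terms (SE, adjusted p = 2e-05). Replicates of both genes lay close together and the groups were far apart. CCL5 (ENSG00000271503, chromosome 17, 35871491 to 35880793, minus strand), the most abundant of the 10 genes per length in the H1299 miR-29a-3p libraries, had 230.0 and 285 FPKM in miR-29a-3p libraries, against 76.8 and 102 FPKM in controls. Its log2 fold change was 1.52 ± 0.27 (SE, adjusted p = 0.0043). The groups did not overlap, though the spread within each was wide, at 257 ± 39 FPKM after miR-29a-3p and 89.3 ± 18 FPKM in controls.

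Both CXCR3 ligands were about 4-fold higher in H1299 cells after miR-29a-3p. CXCL10 (ENSG00000169245, chromosome 4, 76021117 to 76023497, minus strand) had 14.6 and 15.1 FPKM in miR-29a-3p libraries, against 3.38 and 3.69 FPKM in controls, a ratio of means of 4.21 (log2 fold change 1.81 ± 0.084, SE, adjusted p = 2.3e-05). CXCL11 (ENSG00000169248, chromosome 4, 76033682 to 76041415, minus strand) had 8.09 and 9.53 FPKM in miR-29a-3p libraries, against 2.30 and 2.11 FPKM in controls, a ratio of means of 4 (log2 fold change 1.61 ± 0.083, SE, adjusted p = 3.3e-05). Neither gene's libraries overlapped between treatments.

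Among the cytokines TNFSF14 and CSF3 had the largest ratios. TNFSF14 (ENSG00000125735, chromosome 19, 6661253 to 6670588, minus strand), a TNF family ligand, had 8.46 and 7.63 FPKM after miR-29a-3p, against 0.235 and 0.742 FPKM in controls, which is an estimated 627 and 569 fragments against 18 and 43. The ratio of means was 16.5, and the log2 fold change of 2.62 ± 0.16 (SE, adjusted p = 5.8e-05) ranked 3 of 14635 genes from the highest. CSF3 (ENSG00000108342, chromosome 17, 40015361 to 40017813, plus strand), the granulocyte growth factor, had 8.56 and 8.60 FPKM in miR-29a-3p libraries, against 0.897 and 0.710 FPKM in controls. Its log2 fold change of 2.41 ± 0.077 (SE, adjusted p = 9.8e-06) ranked 7. Replicates agreed closely in CSF3, while the controls of TNFSF14 differed by more than their mean.

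CSF2 and IL6 rose by less. CSF2 (ENSG00000164400, chromosome 5, 132073790 to 132076170, plus strand), which drives granulocyte and macrophage growth, had 3.68 and 5.62 FPKM in H1299 miR-29a-3p libraries, against 0.895 and 1.35 FPKM in controls, or an estimated 45 and 69 fragments against 11 and 13. The log2 fold change was 1.40 ± 0.19 (SE, adjusted p = 0.0014). IL6 (ENSG00000136244, chromosome 7, 22725884 to 22732002, plus strand), a ligand of IL6R and gp130, had 13.0 and 13.5 FPKM in H1299 miR-29a-3p libraries, against 10.2 and 9.18 FPKM in controls. This ratio of 1.37 was the smallest among the 9 genes that rose (log2 fold change 0.42 ± 0.089, SE, adjusted p = 0.0086). The IL6 call was lost with a pseudocount of 0.1 (adjusted p = 0.059) and without H1299 control 2 (adjusted p = 0.053).

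LIF was the exception in H1299 cells. LIF (ENSG00000128342, chromosome 22, 30240447 to 30246851, minus strand), which supports stem cells and signals through LIFR and gp130, had 52.6 and 51.3 FPKM in miR-29a-3p libraries, against 98.3 and 95.3 FPKM in controls. It fell by 0.88 ± 0.043 on the log2 scale (SE, adjusted p = 2.7e-05), a ratio of means of 0.537. The groups were well apart, and the gene stood in place 14079 of 14635 from the highest fold change. It is also the gene with the seed match shown above, and in A549 it rose (log2 fold change 0.53). What part the match has in either response was not tested.

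**Figure D1:**
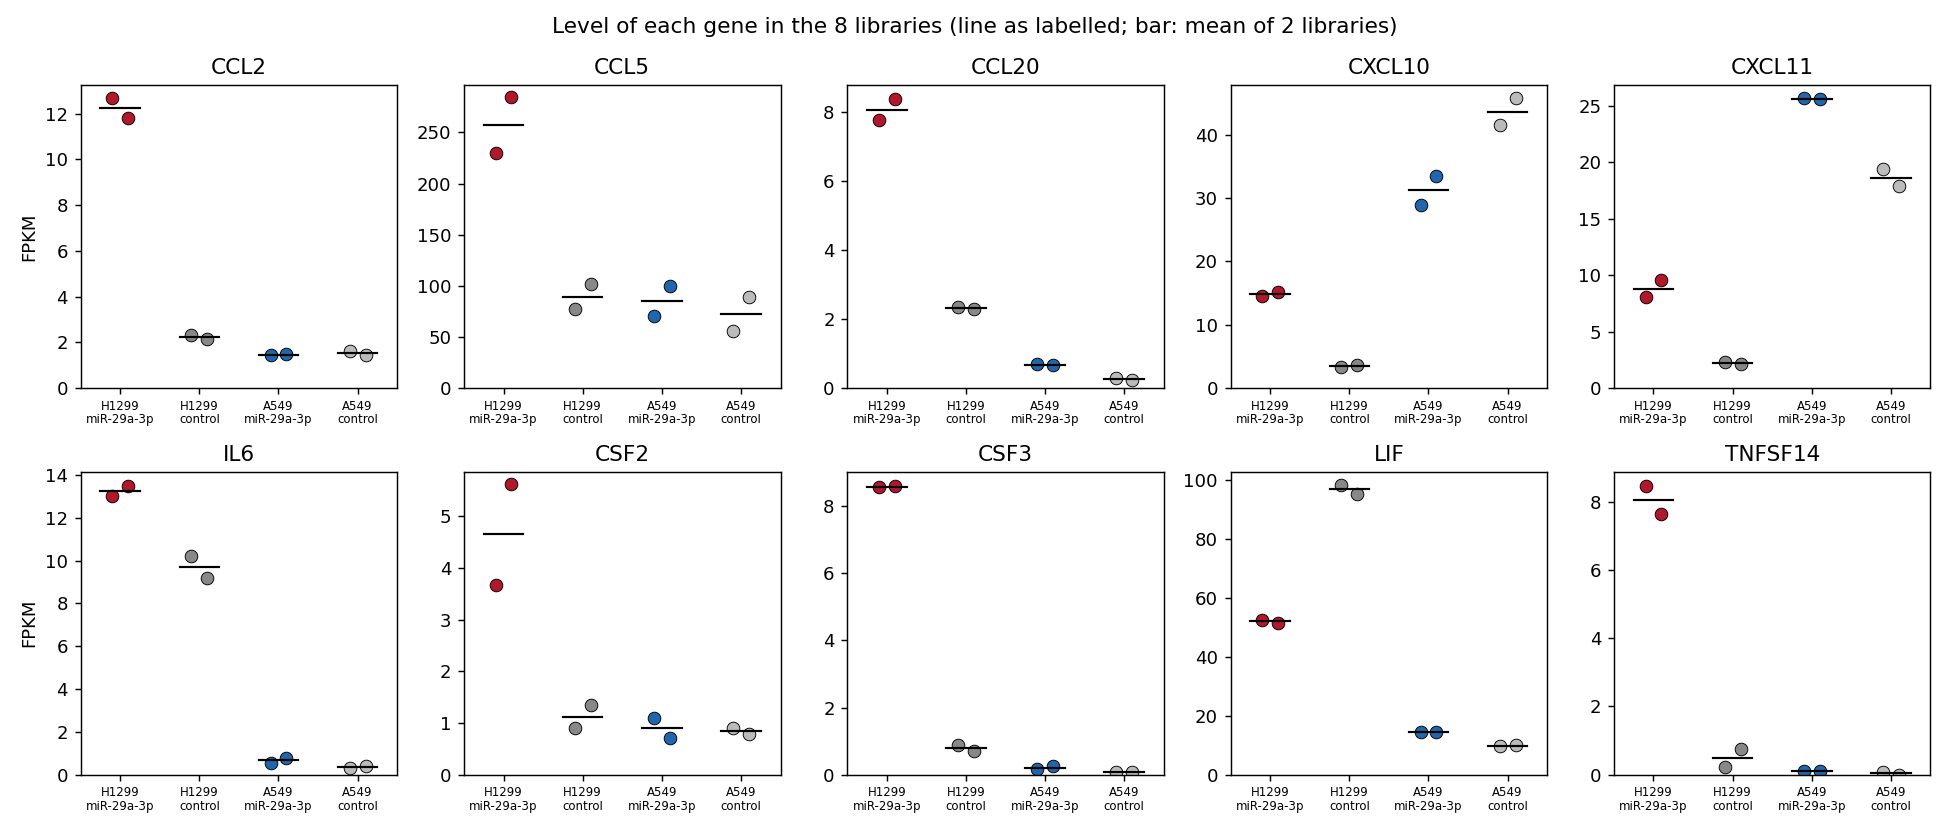
FPKM of each of the 10 genes (y axes, each from 0) in the 4 groups as labelled (x axes), with 1 point per library and a bar at the mean of 2 libraries. In 6 of the panels the H1299 miR-29a-3p libraries are the highest of all 8 by a wide margin, in IL6 they lie just above the H1299 controls, LIF is highest in the H1299 controls, and CXCL10 and CXCL11 are highest in A549.

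In the libraries labelled A549 fewer of these genes were called: 3 of the 10 rose, 1 fell and 6 were not called, where 7.3% of all genes tested rose and 8.66% fell. The median log2 fold change was 0.21, against 0.00 for all genes. LIF, CCL20 and CXCL11 rose and CXCL10 fell. LIF had 14.6 FPKM in both miR-29a-3p libraries, against 9.61 and 10 FPKM in controls, 0.53 ± 0.043 higher in log2 terms (SE, adjusted p = 0.0011). CCL20 had 0.681 and 0.655 FPKM in miR-29a-3p libraries, against 0.276 and 0.220 FPKM in controls, which is only an estimated 16 and 13 fragments against 6 and 4 (log2 fold change 0.42 ± 0.065, SE, adjusted p = 0.0095).

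The CXCR3 ligands went opposite ways in A549. CXCL10 had 29 and 33.5 FPKM in miR-29a-3p libraries, against 41.6 and 45.8 FPKM in controls, a log2 change of -0.47 ± 0.084 (SE, adjusted p = 0.015). CXCL11 had 25.7 and 25.6 FPKM in miR-29a-3p libraries, against 19.4 and 17.9 FPKM in controls, a log2 change of 0.44 ± 0.083 (SE, adjusted p = 0.018). Neither pair of groups overlapped. These calls are less firm than those in H1299. CXCL10 lost its call with the line fitted alone (adjusted p = 0.067), without A549 miR-29a-3p 1 (adjusted p = 0.062) and without A549 control 2 (adjusted p = 0.081). CXCL11 lost it with replicate number as a block and without any of the 4 A549 libraries (adjusted p = 0.050 to 0.090). CCL20 lost its call without A549 control 2 (adjusted p = 0.053), and LIF kept it throughout.

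The other 6 genes were not called in A549. IL6 had 0.557 and 0.791 FPKM after miR-29a-3p, against 0.320 and 0.382 FPKM in controls (adjusted p = 0.065), and CSF3 had 0.167 and 0.256 FPKM after miR-29a-3p, against 0.0784 and 0.0651 FPKM in controls (adjusted p = 0.18). The libraries of either cytokine did not overlap between treatments, but the levels rest on an estimated 2 to 20 fragments each. With a pseudocount of 0.1 both passed (adjusted p = 0.028 and 0.037). CCL5 had 70.4 and 99.6 FPKM after miR-29a-3p, against 55.6 and 88.9 FPKM in controls (adjusted p = 0.59), with overlapping groups. CCL2 had 1.44 and 1.48 FPKM after miR-29a-3p, against 1.63 and 1.43 FPKM in controls (adjusted p = 0.77), and overlapped. CSF2 overlapped too, at 1.10 and 0.719 FPKM after miR-29a-3p and 0.896 and 0.794 FPKM in controls (adjusted p = 0.91). TNFSF14 was near 0, at 0.116 and 0.0987 FPKM after miR-29a-3p and 0.0820 and 0 FPKM in controls (adjusted p = 0.75).

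**Figure D2:**
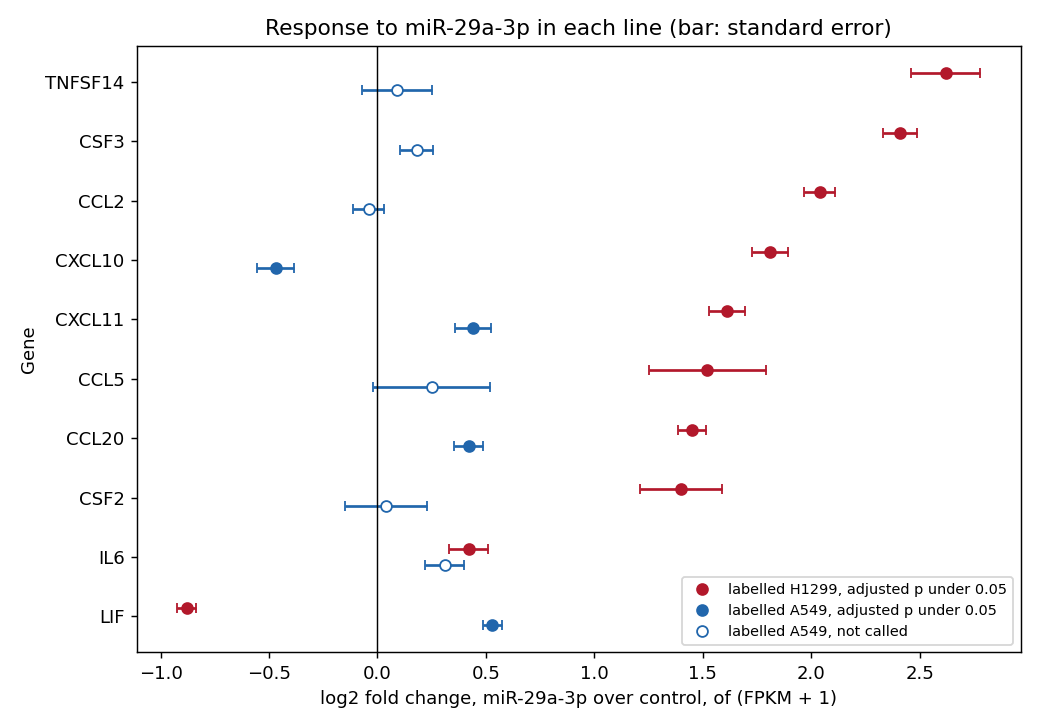
Log2 fold change of (FPKM + 1) after miR-29a-3p over control (x axis) for each gene (y axis), with bars of 1 standard error, in libraries labelled H1299 (red) and A549 (blue). Filled points passed an adjusted p of 0.05. The H1299 points run from -0.88 for LIF to 2.62 for TNFSF14, while the A549 points stay between -0.47 and 0.53.

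The response differed between the lines for 9 of the 10 genes, all but IL6. The difference, the H1299 response minus the A549 response, was called higher for 8 genes and lower for LIF, where 19.2% and 18.1% of all genes tested were called in these directions. It was 2.53 ± 0.22 for TNFSF14 (SE, adjusted p = 0.00049), 2.28 ± 0.12 for CXCL10 (SE, adjusted p = 0.00011), 2.23 ± 0.11 for CSF3 (SE, adjusted p = 8.8e-05) and 2.08 ± 0.10 for CCL2 (SE, adjusted p = 8.7e-05). TNFSF14 and CSF3 passed the filter only through the H1299 miR-29a-3p libraries, so a difference in them was built in. CCL20 passed through the H1299 libraries alone, and the counts are a description. LIF had a difference of -1.41 ± 0.061 (SE, adjusted p = 6.2e-05). LIF and CXCL10 were each called in opposite directions in the lines. CCL20 rose in both, with ratios of mean FPKM of 3.49 in H1299 and 2.69 in A549. For IL6 the difference was 0.11 ± 0.13 (SE, adjusted p = 0.53), and with a pseudocount of 0.1 it was -0.32. CCL5 was the least firm of the 9: its difference of 1.27 ± 0.39 (SE, adjusted p = 0.043) was not called with no filter on low values or without any 1 of the H1299 libraries, A549 miR-29a-3p 1 or A549 control 2 (adjusted p = 0.054 to 0.12).

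Without miR-29a-3p, the control libraries of the lines differed for most of these genes. The H1299 controls were called higher than the A549 controls for 6 genes and lower for 2, where 29.8% and 45% of all genes tested were called in these directions. IL6 and CCL20 passed the filter through H1299 libraries alone, and CSF3 and TNFSF14 through the treated ones, so differences between lines in these 4 genes are given as a description. All genes tested had a median of -0.17 in this comparison, and rescaling to the upper quartile moved that to -0.04, so values are to be read against that shift. IL6 averaged 9.71 ± 0.74 FPKM in H1299 controls and 0.351 ± 0.044 FPKM in A549 controls, a ratio of 27.7. LIF averaged 96.8 ± 2.1 FPKM in H1299 controls and 9.82 ± 0.30 FPKM in A549 controls, a ratio of 9.86 (adjusted p = 4.1e-08). CCL20 averaged 2.31 ± 0.049 FPKM in H1299 controls and 0.248 ± 0.040 FPKM in A549 controls, a ratio of 9.32. CXCL10 and CXCL11 lay the other way, at 3.53 ± 0.22 and 2.20 ± 0.13 FPKM in H1299 controls, against 43.7 ± 3.0 and 18.6 ± 1.1 FPKM in A549 controls (adjusted p = 3.1e-07 and 7e-07). CCL2, CSF3 and TNFSF14 were also called higher in H1299 controls, with log2 differences of 0.35, 0.75 and 0.50. The TNFSF14 call was lost without H1299 control 2 or either A549 control (adjusted p = 0.061 to 0.11). CCL5 and CSF2 were not called (adjusted p = 0.32 and 0.39). These values use the same control libraries as the responses above and are not independent of them.

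The order of levels over the 4 groups took different forms. For CCL2, CCL5, CCL20, IL6, CSF2, CSF3 and TNFSF14 the H1299 miR-29a-3p group stood highest, and next came the H1299 controls. Below them CCL5 and CSF2 overlapped in the other 3 groups, CCL2 overlapped in the A549 groups, and TNFSF14 was near 0 in A549. LIF ran from H1299 controls through H1299 miR-29a-3p and A549 miR-29a-3p to A549 controls with no overlap between neighbours. CXCL10 ran from A549 controls through A549 miR-29a-3p and H1299 miR-29a-3p to H1299 controls, and CXCL11 had the same order with the A549 groups exchanged. After miR-29a-3p the ratio of mean FPKM in H1299 over A549 libraries was 0.475 for CXCL10 and 0.343 for CXCL11, against 0.0809 and 0.118 in the control libraries.

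Receptors of these ligands were mostly below the filter. Of 19 receptor, decoy and co-receptor genes 16 were listed and 8 tested. In H1299 libraries 3 rose and 3 fell, where 25.1% and 24.8% of all genes tested did, and the median log2 fold change was -0.11, against 0.00 for all genes. ACKR3, an atypical receptor that takes up CXCL11 and CXCL12, averaged 15.3 ± 0.87 FPKM after miR-29a-3p and 9.08 ± 0.58 FPKM in controls (log2 fold change 0.70, adjusted p = 0.00075, or 0.052 with a pseudocount of 0.1), and SDC4, a cell surface proteoglycan that binds chemokines, 83.2 ± 0.77 FPKM after miR-29a-3p and 61.6 ± 2.6 FPKM in H1299 controls (adjusted p = 0.00038). IL6ST, the shared subunit for IL6 and LIF, averaged 9.66 ± 0.40 FPKM after miR-29a-3p and 13.9 ± 0.80 FPKM in H1299 controls (log2 fold change -0.48, adjusted p = 0.0042). CSF2RA, a CSF2 receptor chain, averaged 0.532 ± 0.014 FPKM after miR-29a-3p and 1.41 ± 0.17 FPKM in H1299 controls, and passed the filter through these controls alone, so a difference in it was built in. LIFR and LTBR, receptors of LIF and of TNFSF14, had log2 fold changes of 0.25 and -0.25 (adjusted p = 0.037 and 0.018). The LIFR call was lost with no filter on low values, the line fitted alone and a replicate block (adjusted p = 0.075, 0.064 and 0.089). It was also lost without any 1 of the H1299 libraries or either A549 control. The LTBR call was lost without H1299 miR-29a-3p 1 or either H1299 control. With a pseudocount of 0.1, 3 of the 6 receptors were called in H1299. In A549 libraries SDC4 was called, at 107 ± 2.0 FPKM after miR-29a-3p and 87.2 ± 1.7 FPKM in controls (adjusted p = 0.0083), and 0 were called lower in limma, with 1 lower at an unadjusted p under 0.05. The signalling receptors CCR1, CCR3, CXCR3 and CSF3R stayed at 0.0574 FPKM or less in all 8 libraries.

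Of 52 other chemokines and cytokines 48 were listed and 28 tested. Of these 15 rose and 4 fell in H1299, where 25.1% of all genes tested rose and 24.8% fell, with a median log2 fold change of 0.45. Among those that rose, CCL4, CCL26, IL1B and TNFSF10 passed the filter only through the H1299 miR-29a-3p libraries. Their rise was built in, and the count and median are a description. In A549 8 rose and 0 fell in limma (13 and 1 at an unadjusted p under 0.05), where 7.3% of all genes rose and 8.66% fell, with a median of 0.24. The median of all genes was 0.00 in each line. CXCL5 and CXCL1, which attract neutrophils, had log2 fold changes of 2.44 and 2.21 in H1299 (adjusted p = 9.8e-06 and 1.1e-05), and CCL3, which attracts monocytes, of 1.81 (adjusted p = 1.2e-05). Fragments may be shared within the CXCL1 family and between CCL3 and its copies, so those values are uncertain. IL11, a cytokine that like LIF signals through gp130, averaged 27.2 ± 1.2 FPKM after miR-29a-3p and 79.8 ± 3.0 FPKM in H1299 controls (log2 fold change -1.52, adjusted p = 1.7e-05), and 0.892 ± 0.064 FPKM after miR-29a-3p and 0.410 ± 0.060 FPKM in A549 controls (log2 fold change 0.42, adjusted p = 0.0083). IFNL1, an interferon lambda gene, fell by 0.89 and IL18, an inflammasome cytokine, by 0.75 on the log2 scale in H1299 (adjusted p = 0.00016 and 0.0015). In A549 CXCL1, IFNB1 and CXCL8 had log2 fold changes of 0.76, 0.72 and 0.70 (adjusted p = 0.0021, 0.015 and 0.014). The call of CXCL8 was lost without any 1 of the A549 libraries, and that of IFNB1 without either A549 miR-29a-3p library or A549 control 2. IFNB1 also lost its call with the line fitted alone (adjusted p = 0.058) and with a replicate block (adjusted p = 0.052). The A549 count fell from 8 to 5 with the line fitted alone and to 5 with a replicate block. It was 9 with a pseudocount of 0.1 and 10 with a mean of at least 5 FPKM. Without any 1 of the A549 libraries it was also lower.

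**Figure D3:**
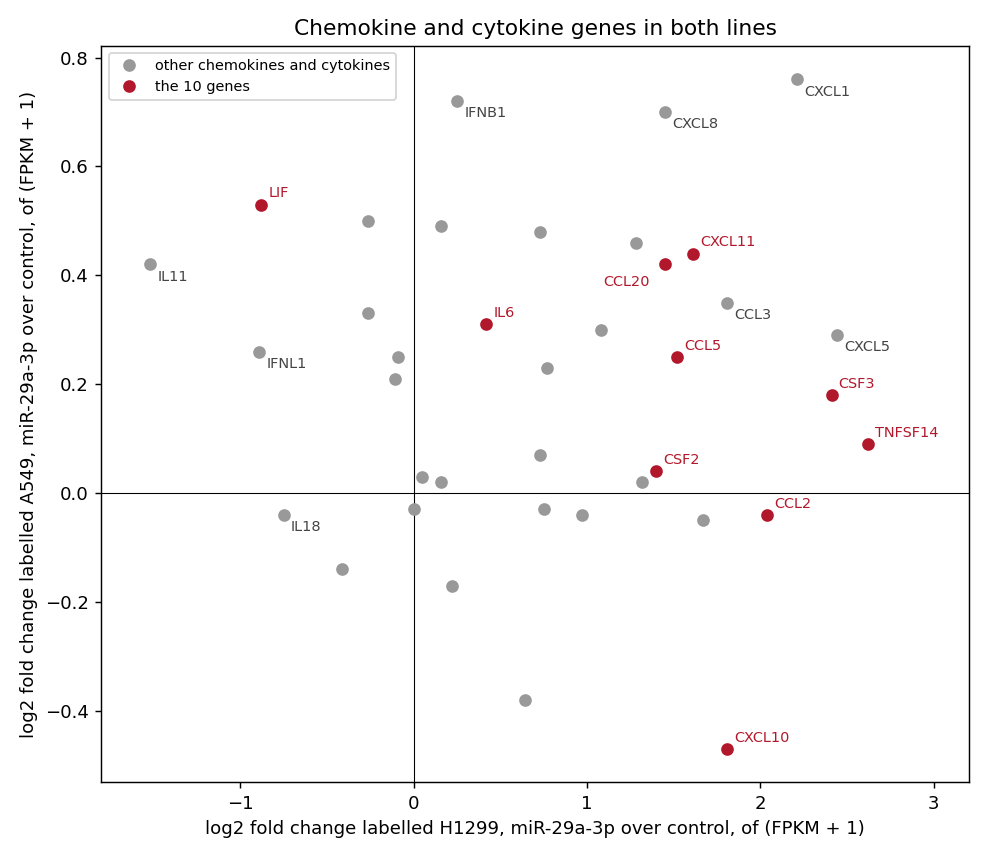
Log2 fold change of (FPKM + 1) after miR-29a-3p over control in libraries labelled H1299 (x axis) and A549 (y axis), for the 10 genes (red) and 28 other chemokines and cytokines (grey). CXCL10 lies at 1.81 and -0.47, LIF at -0.88 and 0.53 and IL11 at -1.52 and 0.42, while most points lie right of 0.

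Of 20 transcription factors that act on such promoters 7 rose and 8 fell in H1299, against 25.1% and 24.8% of all genes tested, with a median log2 fold change of -0.12. In A549 8 rose and 0 fell in limma (10 and 2 at an unadjusted p under 0.05), against 7.3% and 8.66% of all genes, with a median of 0.26. IRF1, which acts at interferon elements, averaged 7.58 ± 0.17 FPKM after miR-29a-3p and 3.82 ± 0.053 FPKM in controls in H1299 (log2 fold change 0.83, adjusted p = 0.00013), and 6.08 ± 0.49 FPKM after miR-29a-3p and 2.86 ± 0.032 FPKM in A549 controls (log2 fold change 0.87, adjusted p = 0.00079). NFKB2, an NF-kB subunit, averaged 31.6 ± 0.081 FPKM after miR-29a-3p and 48.6 ± 0.70 FPKM in H1299 controls (adjusted p = 7.2e-05), and 41.6 ± 0.017 FPKM after miR-29a-3p and 24.2 ± 0.63 FPKM in A549 controls (adjusted p = 0.00031). Its difference between lines was -1.36 (adjusted p = 5.2e-05). REL, another NF-kB subunit, fell by 0.73 on the log2 scale in H1299 (adjusted p = 0.00061), and FOSL1, an AP-1 subunit, fell by 0.74 (adjusted p = 0.00016). CEBPB, which drives IL6 and acute phase genes, averaged 103 ± 33 FPKM after miR-29a-3p and 373 ± 8.2 FPKM in H1299 controls (log2 fold change -1.88, adjusted p = 0.00037). CEBPD and STAT2 rose by 0.91 and 0.72 in H1299 (adjusted p = 0.0087 and 0.0013), the CEBPD call being lost with the line fitted alone (adjusted p = 0.051), and JUNB by 0.77 in A549 (adjusted p = 0.00079). The A549 count fell to 4 or 5 without any 1 of the A549 libraries.

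Of 12 NF-kB feedback genes 5 rose and 2 fell in H1299, against 25.1% and 24.8% of all genes tested, with a median log2 fold change of 0.42. In A549 6 rose and 0 fell in limma (12 and 0 at an unadjusted p under 0.05), against 7.3% and 8.66% of all genes, with a median of 0.54. ICAM1, the leukocyte adhesion ligand, averaged 12.7 ± 0.18 FPKM after miR-29a-3p and 5.95 ± 0.54 FPKM in H1299 controls (adjusted p = 8.6e-05), and 59.4 ± 2.0 FPKM after miR-29a-3p and 32.5 ± 1.5 FPKM in A549 controls (adjusted p = 0.0010). BIRC3 and TRAF1, which act in TNF receptor complexes, had log2 fold changes of 1.18 and 0.84 in A549 (adjusted p = 0.0012 and 0.00031) and of -0.06 and 0.07 in H1299 (adjusted p = 0.67 and 0.24), and their responses differed between lines (adjusted p = 0.0011 and 0.00033). NFKBIZ, a nuclear co-factor of NF-kB, and BCL3 rose by 0.82 and 0.63 in H1299 (adjusted p = 0.00024 and 0.00059). NFKBIB, an NF-kB inhibitor, and CYLD, a deubiquitinase that restrains the pathway, fell by 0.99 and 0.38 (adjusted p = 0.00016 and 0.0067).

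Of 17 factors that control the decay of cytokine mRNAs 5 rose and 6 fell in H1299, and 2 rose and 2 fell in A549, with a median log2 fold change of 0.07 in each. These counts lie near the share over all genes tested, of which 25.1% rose and 24.8% fell in H1299 and 7.3% rose and 8.66% fell in A549. ZFP36 (tristetraprolin), which binds AU-rich elements such as the one shown for CSF2, averaged 19.7 ± 9.9 FPKM after miR-29a-3p and 6.36 ± 0.38 FPKM in H1299 controls, with a wide spread between treated replicates (log2 fold change 1.41 ± 0.29, SE, adjusted p = 0.0075, or 0.053 with the line fitted alone). ZC3H12A (regnase-1), an endonuclease for cytokine mRNAs, averaged 71.8 ± 0.30 FPKM after miR-29a-3p and 47.5 ± 2.1 FPKM in H1299 controls (log2 fold change 0.59, adjusted p = 0.00028). CNOT1, the scaffold of the deadenylase complex, and PAN3 fell by 0.48 and 0.35 in H1299 (adjusted p = 0.0012 and 0.0051), while CNOT6 rose by 0.42 (adjusted p = 0.0039). DCP1A, of the decapping complex, fell by 0.31 (adjusted p = 0.025). This call was lost with no filter on low values, with a replicate block (adjusted p = 0.053 in each) and without any 1 of the H1299 libraries. In A549 ZFP36L2 rose by 0.71 (adjusted p = 0.0012). The A549 calls of ZC3H12A (0.26, adjusted p = 0.028), ZFP36L1 (-0.46, adjusted p = 0.037) and HNRNPD (-0.25, adjusted p = 0.046) were less firm. They were lost with the line fitted alone (adjusted p = 0.11, 0.064 and 0.12) and with a replicate block (adjusted p = 0.056, 0.10 and 0.087). With no filter on low values ZFP36L1 and HNRNPD were not called (adjusted p = 0.088 and 0.078). HNRNPD was also lost with a pseudocount of 0.1, upper-quartile rescaling and no variance trend (adjusted p = 0.051 to 0.057). ZC3H12A was lost without any 1 of the A549 libraries or either H1299 miR-29a-3p library. ZFP36L1 was lost without any 1 of the A549 libraries or either H1299 control, and HNRNPD without any library other than A549 control 1. The number called in A549 was 1 or 2 without any 1 of its libraries or either H1299 control, and in H1299 it was 6 or 7 without any 1 of the H1299 libraries.

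**Figure D4:**
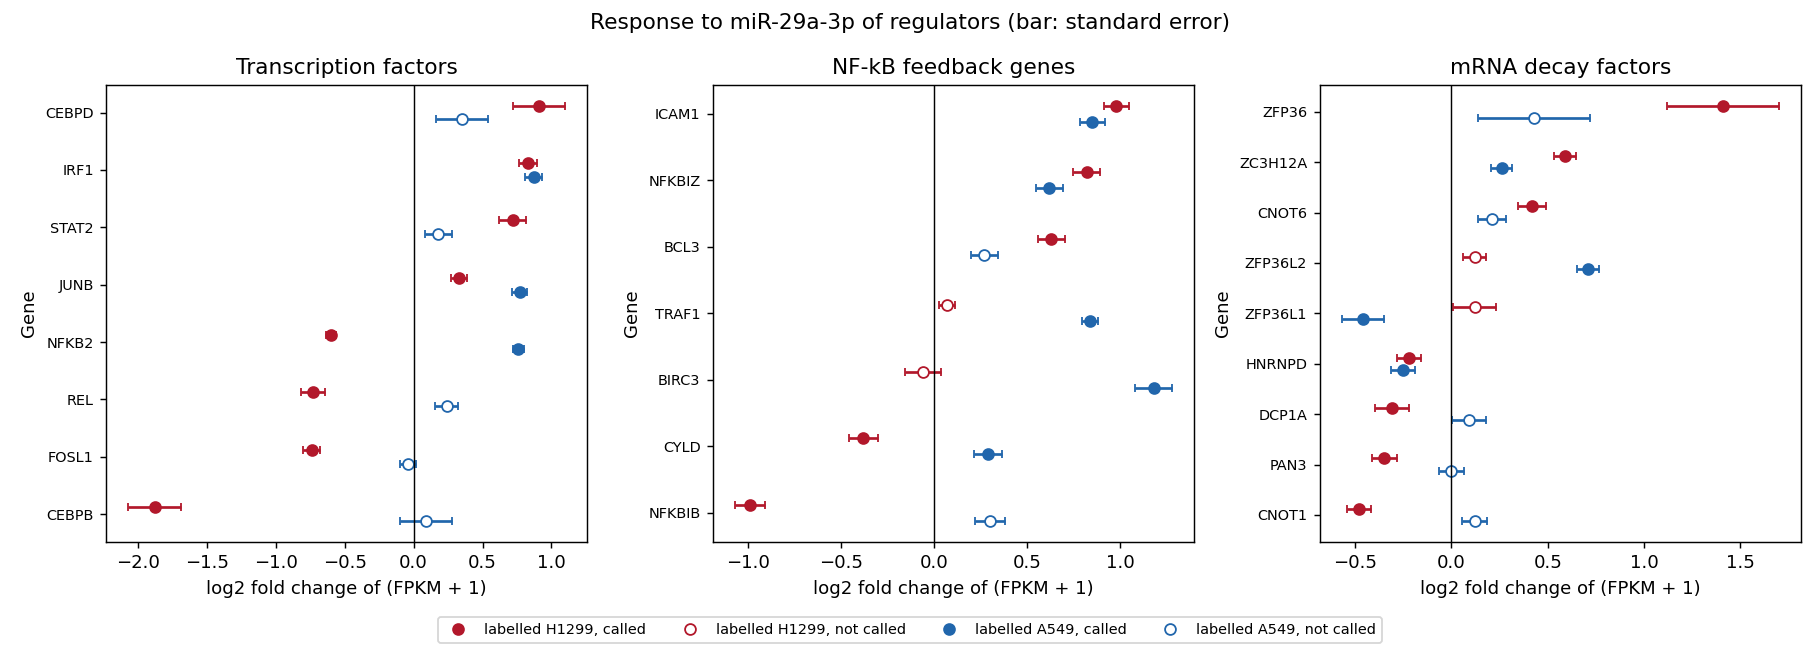
Log2 fold change of (FPKM + 1) after miR-29a-3p over control (x axes), with bars of 1 standard error, of the named transcription factors, NF-kB feedback genes and mRNA decay factors (y axes) in libraries labelled H1299 (red) and A549 (blue). Filled points passed an adjusted p of 0.05. NFKB2 lies on opposite sides of 0 in the lines, IRF1 and ICAM1 lie right of 0 in both, and CEBPB is lowest at -1.88 in H1299.

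Of 18 genes of the STAT3 pathway, which acts downstream of the IL6 and LIF receptors, 9 were tested. In H1299 2 rose and 2 fell, against 25.1% and 24.8% of all genes tested, with a median log2 fold change of -0.02. In A549 0 rose and 3 fell in limma (0 and 3 at an unadjusted p under 0.05), against 7.3% and 8.66% of all genes, with a median of -0.03. SOCS3, the STAT3-induced inhibitor of gp130, averaged 37.1 ± 2.7 FPKM after miR-29a-3p and 23.5 ± 1.3 FPKM in H1299 controls (log2 fold change 0.64, adjusted p = 0.00042), and 9.89 ± 0.29 FPKM after miR-29a-3p and 9.54 ± 0.15 FPKM in A549 controls (adjusted p = 0.68). STAT3 itself averaged 6.91 ± 0.24 FPKM after miR-29a-3p and 9.84 ± 0.26 FPKM in A549 controls (log2 fold change -0.46, adjusted p = 0.0060). PIM1, a kinase induced by STAT3, fell by 0.76 in H1299 and 0.79 in A549 (adjusted p = 0.00017 and 0.0011). JAK1, a kinase bound to gp130, fell by 0.34 in H1299 (adjusted p = 0.00081). PIAS3, an inhibitor of STAT3, rose by 0.70 in H1299 (adjusted p = 0.00012) and had -0.23 in A549 (adjusted p = 0.032). The A549 call was lost with the line fitted alone (adjusted p = 0.074) and with a replicate block (adjusted p = 0.085). It was also lost without any 1 of the A549 libraries or either H1299 miR-29a-3p library.

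As a description of likeness, the mean standardised profile of the 10 genes over the 8 libraries was compared with every other tested gene that reached 5 FPKM. The 5 nearest genes had Pearson correlations of 0.995 to 0.998, and the libraries share their lines and treatments. They include LYNX1, with 6.27 and 7.25 FPKM in H1299 miR-29a-3p libraries, 0.581 and 0.602 FPKM in H1299 controls and 0.133 to 0.276 FPKM in A549, EFNB1, an ephrin ligand, and PSME2, an interferon-inducible proteasome activator subunit. FAS, the death receptor, had 12.7 and 13.1 FPKM in H1299 miR-29a-3p libraries, 3.10 and 3.93 FPKM in H1299 controls and 1.96 to 2.80 FPKM in A549. Of the 10 genes themselves CCL2, CSF3 and TNFSF14 followed the mean profile most closely, each with a correlation of 0.99, and LIF, CXCL10 and CXCL11 the least, with 0.48, -0.22 and -0.22. Each gene is itself part of that mean. CSF3, TNFSF14 and LYNX1 also passed the filter on low values only through the H1299 miR-29a-3p libraries. LYNX1, EFNB1 and FAS reached 5 FPKM in those libraries alone, so part of their likeness was built in.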

How the data were processed

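The authors deposited 1 table of FPKM values for each gene in each library (per the file headers), made from total RNA. The submitters' processing notes name StringTie and GRCh38, while the sources used here give neither aligner, annotation release nor strand setting. Genes that the table lists for a single line were set to 0 in the other line. The 14635 genes that reached 1 FPKM in 2 or more of the 8 libraries were tested with limma 3.58.1 under R 4.3.3 on log2(FPKM + 1), using 1 mean per group, a variance trend, 4 residual degrees of freedom and Benjamini-Hochberg adjustment over all genes tested. The method was checked on simulated data. Design notes allowed for counts, and the form for FPKM was used.

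Fragment totals were estimated from the library size at which values under 0.2 FPKM most often equal 1 fragment, with exon lengths of GENCODE release 29. Between 38.2% and 42.1% of values between 0.5 and 200 fragments were then whole numbers to within 0.02, so no count test was run, and fragment numbers are estimates that cover counting only. The labels number the libraries without saying whether cultures were separate, so the p-values reflect the spread among these libraries, which may be technical. Replicates differed by a median of 0.079 to 0.088 (log2).

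The genes and lists were chosen with earlier results of these data known. Named from each of 6 lists are the 3 highest and 3 lowest called genes per line. Of the 5 genes nearest in profile 1 is not reported here. Alternatives were a pseudocount of 0.1, no filter, a mean of at least 5 FPKM, upper-quartile rescaling, each line alone, a replicate block, no variance trend and leaving out each library.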

Additional observations from a re-analysis of the deposited data

Results flagged for a closer look

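The response to miR-29a-3p differed between the lines as labelled, by a test of the difference itself in limma, for 9 of the 10 genes. On the log2(FPKM + 1) scale the H1299 response minus the A549 response was 2.53 for TNFSF14, 2.28 for CXCL10, 2.23 for CSF3, 2.08 for CCL2, 1.36 for CSF2, 1.27 for CCL5, 1.17 for CXCL11, 1.03 for CCL20 and -1.41 for LIF. For TNFSF14 and CSF3 a difference was built in, since they passed the filter only through the H1299 miR-29a-3p libraries. CCL20 passed it through the H1299 libraries alone. CCL20 was under 1 FPKM in A549, where this scale shows less than the true change. Its ratio of means was 3.49 in H1299 and 2.69 in A549, and over the alternatives its difference was as low as 0.61. CXCL10 and LIF were called in opposite directions in the lines. Groups of 2 libraries are too small to look for single libraries that stand apart.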

How the results depend on the processing

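In H1299 the direction of all 10 genes held under every alternative in which they were tested, and 9 or 10 were called in all but 1 of them. Requiring a mean of at least 5 FPKM left fewer genes to test and 5 called in H1299, 4 for the difference between lines and 4 between control lines, with 3773, 2984 and 4923 of all genes. In A549 1071 of all genes were called with the line fitted alone and 1261 with a replicate block, against 2336. Leaving out 1 library gave 9 to 10 of the 10 genes called in H1299, 1 to 4 in A549, 8 to 9 for the difference and 7 to 8 between controls. The A549 count was 2 without A549 miR-29a-3p 1 and 1 without A549 control 2. Over all genes leaving out 1 library gave 5892 to 7205 in H1299, 1066 to 1937 in A549, 4426 to 4646 for the difference and 10057 to 10887 between controls.

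Signs turned only in values that were not called: in A549, leaving out 1 library, for CCL2 (-0.09 to 0.02), CCL5 (-0.09 to 0.58) and CSF2 (-0.10 to 0.19), between controls for CCL5 (-0.01 to 0.66), for the IL6 difference with a pseudocount of 0.1 (-0.32) and for CSF2 between controls with the replicate block (-0.10). The cause was not tested. Replicate numbers are shared only as numbers, and deviations of same-numbered libraries correlated at -0.037 to 0.063 over genes. With the replicate block 10, 3, 9 and 8 of the 10 genes were called in H1299, in A549, for the difference and between controls. CXCL11 in A549 was then not called (adjusted p = 0.061), CCL5 between controls was called (adjusted p = 0.0070), and TNFSF14 between controls was not (adjusted p = 0.18). Levels under 1 FPKM rest on few fragments.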

Other observations

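The decoy receptor TNFRSF6B, which binds TNFSF14, was singled out after its values were seen. It had 17.9 and 15.5 FPKM in A549 miR-29a-3p libraries, against 22.0 and 25.8 FPKM in A549 controls (limma, log2 fold change -0.49, adjusted p = 0.092), and 0.0573 and 0.171 FPKM in H1299 miR-29a-3p libraries, against 0.114 and 0.510 FPKM in H1299 controls. TNFRSF14, which like LTBR is a signalling receptor of TNFSF14, was also chosen after the fact. It stayed under the filter, at 0.280 and 0.384 FPKM in H1299 miR-29a-3p libraries, against 0.0648 and 0.0191 FPKM in H1299 controls.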
